A study of Mus musculus with 2 samples.

Results

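The genes described here are 36 mouse integrin and leukocyte adhesion genes, out of 55536 genes in the quantification tables. They comprise 17 integrin alpha chains, 7 integrin beta chains, 6 surface adhesion partners and 6 intracellular activators of integrins. They were chosen by gene symbol, as possible alpha and beta pairs with their activators and partners, and each symbol matched 1 gene. The RNA-seq libraries were made from polyadenylated RNA of activated regulatory T cells, CD4+ T cells that express Foxp3 and restrain immune responses. The cells came from an adult male mouse, 4 months old, of the strain Foxp3CreERT2 x Rosa26YFP, in which the Foxp3 locus drives a tamoxifen-inducible Cre and Rosa26 carries a yellow fluorescent reporter. The labels name a bone marrow haematopoietic cell as the origin of the cells. Sorting, activation and any tamoxifen treatment are not stated in the labels, so the activated state rests on the name of the cell type. The 2 libraries are technical replicates 1 and 2 of biological replicate 1. With a single group, the question is which adhesion genes were expressed in these cells, and how high.

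Integrins are membrane receptors made of 1 alpha and 1 beta chain, and the pair decides which ligand is bound. On T cells, alpha L with beta 2 (LFA-1) binds the ICAM proteins, alpha 4 with beta 1 (VLA-4) binds VCAM-1 and fibronectin, alpha 4 with beta 7 binds the gut addressin MAdCAM-1, and alpha E with beta 7 (CD103) binds E-cadherin on epithelium. They are held inactive until signals from the T cell receptor or from chemokine receptors load the small GTPase Rap1 with GTP. Talin and kindlin then bind the cytoplasmic tail of the beta chain and shift the receptor to its high-affinity form.

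The sequences below are the coding ends of the chains of the set with the highest levels, because the activators in the set act on these tails. They were read from GENCODE M21 transcripts (mm10) and are printed on the sense strand, 5′ to 3′. Each is its gene's complete coding transcript with the most reads, except the B tail of Itga6, which is added for contrast. For the beta chains the last 50 codons before the stop codon are shown. Capitals mark codons for asparagine, any 2 residues, and tyrosine or phenylalanine, the motif to which talin and kindlin bind.
Itgb2-201 (chromosome 10, plus strand): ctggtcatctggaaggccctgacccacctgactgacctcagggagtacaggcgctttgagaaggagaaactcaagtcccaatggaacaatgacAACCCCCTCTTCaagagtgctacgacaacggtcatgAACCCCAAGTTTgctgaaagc
Itgb1-201 (chromosome 8, plus strand): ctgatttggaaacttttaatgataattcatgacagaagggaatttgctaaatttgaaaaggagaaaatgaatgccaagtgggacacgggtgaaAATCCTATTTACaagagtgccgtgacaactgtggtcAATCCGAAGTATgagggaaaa
Itgb7-201 (chromosome 15, minus strand): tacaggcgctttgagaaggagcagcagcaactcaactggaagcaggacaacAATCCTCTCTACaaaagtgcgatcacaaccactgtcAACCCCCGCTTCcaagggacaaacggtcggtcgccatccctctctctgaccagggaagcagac
Itgb3-201 (chromosome 11, plus strand): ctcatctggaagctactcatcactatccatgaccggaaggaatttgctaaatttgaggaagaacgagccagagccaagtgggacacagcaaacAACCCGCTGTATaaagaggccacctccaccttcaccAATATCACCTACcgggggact
Searched over the last 80 codons, 6 of the 7 beta chains held 2 such motifs, and Itgb4 held none. In Itgb1, Itgb2 and Itgb7, the 3 beta chains above 100 TPM, both motifs had a proline codon in second place.

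For the alpha chains the sequence runs from the membrane-proximal motif to the end of the coding sequence. Capitals mark the codons of that motif, which encode glycine, phenylalanine, phenylalanine, lysine or arginine, and arginine. The motif clasps the beta tail in the inactive receptor.
Itgal-202 (chromosome 7, plus strand): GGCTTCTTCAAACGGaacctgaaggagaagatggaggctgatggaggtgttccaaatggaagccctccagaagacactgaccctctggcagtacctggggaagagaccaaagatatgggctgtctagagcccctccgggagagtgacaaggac
Itga4-201 (chromosome 2, plus strand): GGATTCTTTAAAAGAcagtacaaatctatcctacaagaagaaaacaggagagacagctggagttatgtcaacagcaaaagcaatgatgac
Itgae-201 (chromosome 11, plus strand): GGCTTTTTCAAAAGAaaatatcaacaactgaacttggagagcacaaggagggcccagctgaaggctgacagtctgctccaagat
Itga6-201, the A tail (chromosome 2, plus strand): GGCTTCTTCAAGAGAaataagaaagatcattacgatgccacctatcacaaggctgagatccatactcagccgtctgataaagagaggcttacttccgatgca
Itga6-202, the B tail, without reads here (chromosome 2, plus strand): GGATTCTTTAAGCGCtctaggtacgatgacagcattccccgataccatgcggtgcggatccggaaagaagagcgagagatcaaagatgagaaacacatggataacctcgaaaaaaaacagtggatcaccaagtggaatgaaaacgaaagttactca
The motif was found within the last 100 codons of 14 of the 17 alpha chains, and not in Itga8, Itga10 or Itga11. Past the motif the alpha tails differ in length as well as sequence, from 28 codons in Itgae to 51 in Itgal and 52 in the B form of Itga6, counted with the motif.

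The estimated gene reads came to 15076048 in library 1 and 14635787 in library 2, of which the 36 genes took 0.584% and 0.636%. Levels are given as TPM, a measure of transcript abundance scaled by length, which can be set side by side between genes. Means are given ± SD over the 2 technical libraries (n = 2), so no spread between animals was measured. In bulk RNA, fewer cells of a type and less RNA per cell cannot be told apart. The labelled cell type carried its markers, with Foxp3 at 23.8 and 20.9 TPM and all 6 regulatory T cell and all 7 T cell markers at 1 TPM or more in both libraries. The 6 neutrophil markers summed to 0.36 and 0.19 TPM, the 6 platelet markers to 0.65 and 0.80 TPM and the 6 endothelial markers to 0.48 and 0.26 TPM. The 6 monocyte and macrophage markers summed to 3.17 and 5.80 TPM, with Cd14 at 0 reads, and the 6 dendritic cell markers to 6.77 and 7.95 TPM, with Siglech at 0 reads. The 5 natural killer cell markers summed to 1.70 and 2.47 TPM, with Ncr1 and Klra8 at 0 reads, and the 7 epithelial and stromal markers to 1.42 and 2.21 TPM, with Cxcl12 at 0 reads. The 6 B cell markers had the largest sum of the other cell types, 26.2 and 25.01 TPM, of which Igkc took 23.9 and 22.6 TPM. At 1 TPM or more in both libraries were 2 B cell, 2 dendritic cell, 1 monocyte and macrophage and 1 natural killer cell markers. Besides Igkc they were Cd79a (1.26 and 1.70 TPM), Zbtb46 (3.26 and 2.48), H2-Aa (3.00 and 4.04), Cd68 (2.49 and 2.57) and Klrb1c (1.10 and 1.99). No neutrophil, platelet, endothelial or epithelial and stromal marker reached that level in both.

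Of the 36 genes, 23 reached 1 TPM in both libraries, or 63.9%, against 46.2% of 22028 protein-coding genes. At 10 TPM the count was 19, against a background of 29.5%, and at 100 TPM it was 9, against 5.25%. All 6 adhesion partners and all 6 activators reached 1 TPM, as did 7 of the 17 alpha chains and 4 of the 7 beta chains. A further 12 genes stayed below 1 TPM in both libraries, and Itgb5 was at 1.20 TPM in library 1 and 0.41 TPM in library 2. Among the 23 genes, Itgb3, Itga2, Itga7 and Itga5 were the 4 between 1 and 10 TPM in at least 1 library.

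**Figure D1:**
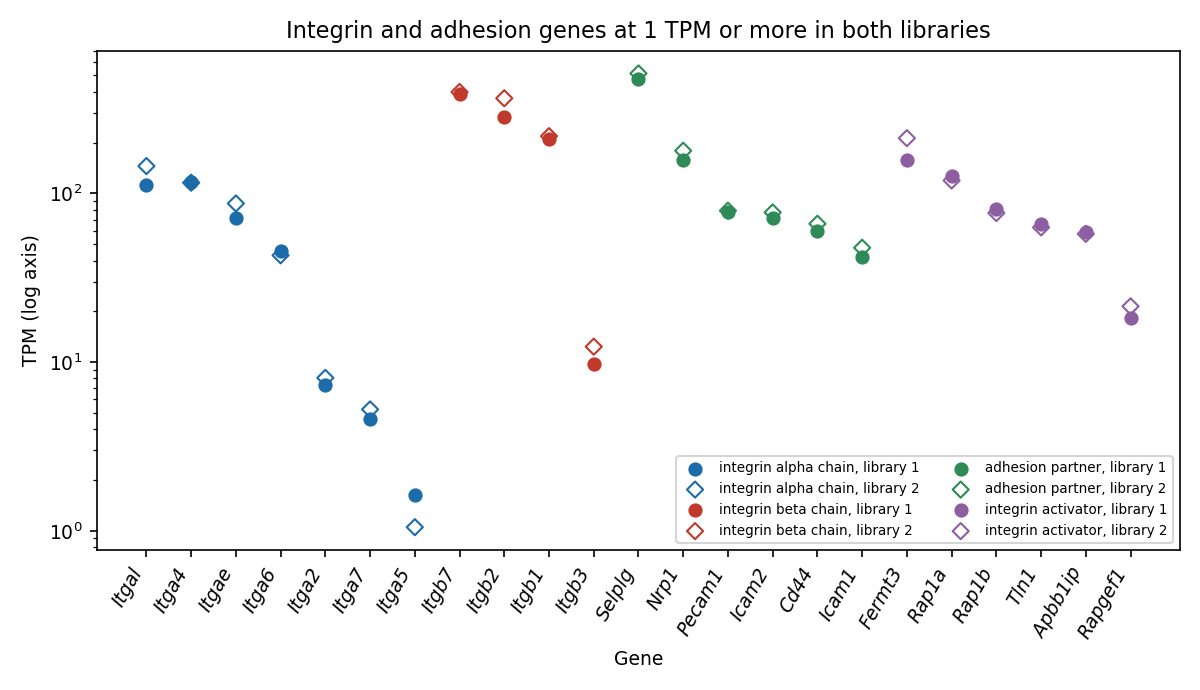
TPM (log axis) of the 23 genes at 1 TPM or more in both libraries, grouped by role, with filled circles for library 1 and open diamonds for library 2. The 4 highest alpha chains of the set lie between 42.95 and 145 TPM and its 3 highest beta chains between 210.4 and 399 TPM.

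Among the alpha chains, Itgal, Itga4, Itgae and Itga6 held nearly the whole summed level. Itgal (chr7:127296260-127335138), which encodes the alpha chain of LFA-1, was at 112 TPM in library 1 and 145 TPM in library 2, a mean of 129 ± 23.2. Itga4 (chr2:79255426-79333123), the alpha chain shared by VLA-4 and the gut-homing receptor, was at 116 TPM in both libraries (116 ± 0.318). The Itga4 values lay inside the Itgal range, so the order of these 2 chains differed between the libraries. Itgae (chr11:73090583-73147446), the CD103 chain of T cells that lodge in epithelium, was at 71.6 and 87.1 TPM (79.4 ± 10.996), below both in each library. Itga6 (chr2:71745616-71858416), a laminin receptor chain, was at 45.7 and 42.95 TPM (44.3 ± 1.94). Expressed as shares of the summed TPM of the 17 alpha chains, Itgal took 33.4% ± 3.26, Itga4 30.3% ± 2.61, Itgae 20.6% ± 1.14 and Itga6 11.6% ± 1.47.

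3 further alpha chains, all of which pair with beta 1, were low but detected. The collagen receptor chain Itga2 was at 7.33 and 8.06 TPM, from 307 and 257 estimated reads. A transcript of 480 bases, Itga2-202, took 55.6% and 65.4% of that TPM from 7.09% and 10.3% of the reads. Itga7, a laminin receptor chain best known from muscle, was at 4.59 and 5.24 TPM from 155 and 140 reads. Itga5, the alpha chain of the classical fibronectin receptor, was at 1.63 and 1.05 TPM, from 72 and 53 reads. The ranges of these 3 genes did not overlap by TPM. With reads divided by the length of the transcript with the longest coding sequence, the ranges of Itga2 and Itga7 overlapped.

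The remaining 10 alpha chains were between 0 and 0.84 TPM, some of them well above the level of 3 reads. Itga3, a laminin receptor chain, had 24 and 45 reads, and the collagen receptor chain Itga1 had 51.9 and 33.5. Itga2b, the platelet alpha chain, had 11 and 2 reads. Itga8, Itga9, Itga10, Itga11 and Itgad had between 0 and 6 reads in each library.

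The alpha partners of beta 2 showed a split within 1 chromosome. Itgal, Itgam, Itgax and Itgad all lie on the plus strand of chromosome 7, and Itgam (chr7:128062640-128118491), Itgax (chr7:128129547-128150657) and Itgad (chr7:128154376-128223816) follow one another. Itgam, the Mac-1 chain of myeloid cells, was at 0.71 and 0.45 TPM from 33.9 and 22 reads. Itgax, the CD11c chain of dendritic cells, had 0 reads in both libraries, for which 3 reads, or 0.162 and 0.172 TPM, set the limit. Itgad had 1 read in library 1 and 0 in library 2. Itgal therefore held 99.2% and 99.7% of the summed TPM of the 4 chains. Itgam shares 68.7% of its exon bases with Gm49368 on the same strand, so the division of reads between them is uncertain.

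The abundant beta chains were Itgb7, Itgb2 and Itgb1. Itgb7 (chr15:102215995-102231944), the partner of alpha 4 and alpha E, was at 387 and 399 TPM (393 ± 8.75). Itgb2 (chr10:77530252-77565708), the common chain of the leukocyte-specific integrins, was at 284 and 366 TPM (325 ± 58.4). Itgb1 (chr8:128685654-128733200), the partner of the largest number of alpha chains, was at 210.4 and 218 TPM (214 ± 5.69). The ranges of the 3 genes did not overlap on this scale. Their shares of the summed beta TPM were 41.7% ± 2.35, 34.3% ± 3.49 and 22.8% ± 1.18.

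Itgb3 (chr11:104608000-104670476), which pairs with alpha IIb on platelets and with alpha V elsewhere, was at 9.70 and 12.3 TPM from 690 and 828 reads, or 1.16% of the beta sum. Its platelet partner Itga2b was at 0.26 and 0.12 TPM, and the 6 platelet markers reached 0.39 TPM at most. Itgav, the alpha V chain, which is outside the 36 genes, was at 54.1 and 45 TPM, above Itga6 by gene TPM in each library. Itgb8, which pairs with alpha V and activates latent TGF-beta, was at 8.56 and 7.53 TPM, also outside the set. Itgb5 had 14 and 5 reads, Itgb4 had 0 and 4, and Itgb6 had 4 and 1. Itgb2l and Itgbl1 had 0 reads in both libraries.

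**Figure D2:**
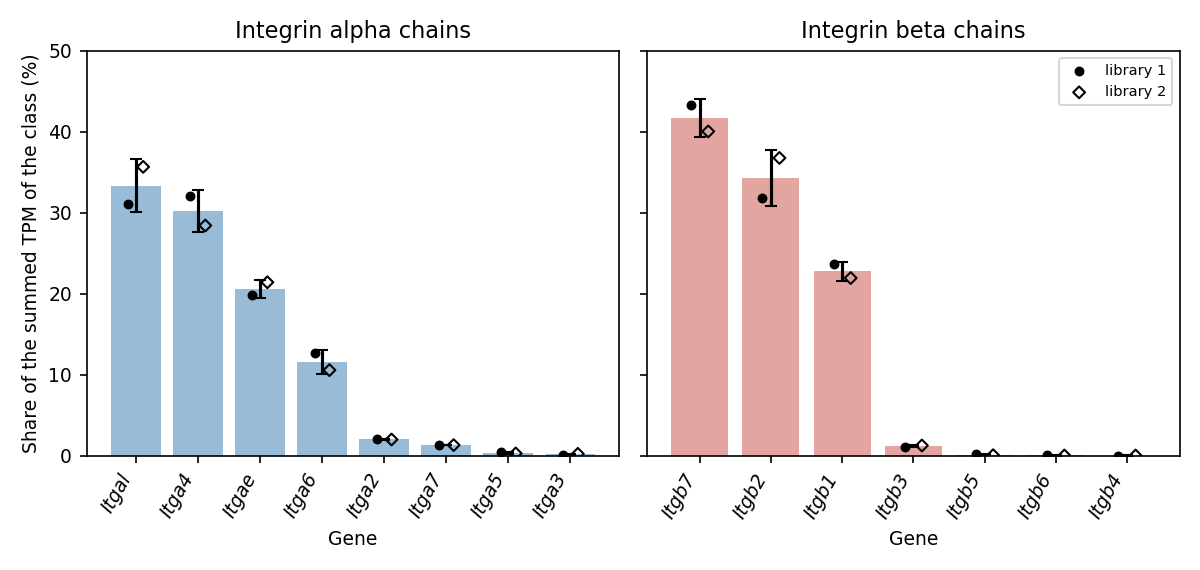
Share of the summed TPM of the 17 alpha chains (left, 8 highest shown) and of the 7 beta chains (right), with bars for the mean of 2 technical libraries, error bars for the SD and symbols for each library. Itgal and Itga4 together with Itgae and Itga6 fill most of the alpha sum, and Itgb7, Itgb2 and Itgb1 most of the beta sum.

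Chains that can form a receptor were then set side by side as ratios of TPM within each library. Itgb2 stood at 2.53 and 2.52 times Itgal by TPM, and at 2.54 and 2.29 times in the second, whole-number count table scaled by the same lengths. Itgb1 stood at 1.19 and 1.254 times the sum of its 11 alpha partners in the set, in which Itga4 took 66.0% ± 0.455, Itga6 25.3% ± 0.865, Itga2 4.39% and Itga7 2.80%. With reads divided by the length of the transcript with the longest coding sequence, that ratio was 2.22 ± 0.0818 in place of 1.22 ± 0.0442. Itga4 was at 0.300 and 0.290 times Itgb7, and Itgae at 0.185 and 0.218 times. This order turned under the other ways of counting. Itga4 stood at 0.156 times Itgb7 over coding transcripts, 0.239 times by the longest coding sequence and 0.171 times by the whole-number counts. Itgae stood at 0.273, 0.338 and 0.286 times. The sum of both alpha partners of Itgb7 reached 0.497 ± 0.0161 of Itgb7. Each of the 3 abundant beta chains thus exceeded the summed TPM of its alpha partners in the set in both libraries. For Itgb1, at 210.4 and 218 TPM, that sum was 177 and 174 TPM. It leaves out Itgav, which can also pair with beta 1 and was at 54.1 and 45 TPM. The excess of Itgb1 by TPM therefore holds only for the partners in the set. RNA ratios do not give the number of receptors at the surface.

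TPM adds up all transcripts of a gene, and some abundant transcripts of these genes are not annotated as coding. For Itgb7, the 449-base retained-intron transcript Itgb7-204 took 36.75% and 34.6% of the gene's TPM but 9.72% and 8.50% of its reads. When TPM was counted over protein-coding transcripts alone, Itgb2 (257 and 328 TPM) stood above Itgb7 (245 and 261 TPM) and Itgb1 (209 and 216 TPM). The ratio of Itgb7 to Itgb2 went from 1.23 ± 0.193 to 0.874 ± 0.111, and to 0.764 ± 0.0790 with reads divided by the length of the transcript with the longest coding sequence. Their order therefore depends on how transcripts are counted, while Itgb1 was the lowest of the 3 in each case. Itgb7 stood at 1.83 times Itgb1 by TPM, at 1.19 times over coding transcripts and at 1.10 times by the longest coding sequence. The whole-number counts went the other way, with Itgb7 at 1.65 ± 0.162 times Itgb2 and 2.65 ± 0.00547 times Itgb1. These ratios and the coding-only count were chosen after the values were seen, except the ratio of Itgb7 to Itgb1, the coding length and the whole-number counts.

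Of the 4 leading alpha chains of the set, Itgal kept its level when coding transcripts alone were counted, and Itga4 and Itga6 did not. Itgal was at 112 and 144 TPM, with its reads spread over Itgal-201 (34.1%), Itgal-202 (35.0%) and Itgal-203 (30.7%). Itgae was at 61.8 and 76.5 TPM. Itga4 was at 39.8 and 39.1 TPM, because 4 processed transcripts without a coding sequence took the rest, although Itga4-201, its only coding transcript, held 70.8% and 70.4% of the reads. Itga6 was at 12.1 and 13.04 TPM. Over coding transcripts Itgae thus stood above Itga4 in both libraries, the opposite of the order of the gene totals. Itga4 also shares 8.04% of its exon bases with Cerkl on the opposite strand, and the sources used here do not say whether the libraries keep strand.

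The alternative tails of Itga6 were resolved in 1 direction. The transcripts that end in the A tail, Itga6-201 and Itga6-207, received 599 and 615 reads, and Itga6-202, which carries the B tail printed above, received 0 in both libraries. Itga6-203, a processed transcript of 3 exons, took the largest part, 968.6 and 838.7 reads. These are model estimates from reads of 50 bases.

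The surface partners were led by Selplg, and the 6 genes spanned from 41.8 to 514 TPM. Selplg (chr5:113818536-113832644) encodes PSGL-1, the selectin ligand on which leukocytes roll, and was the highest of the 36 genes at 475 and 514 TPM (495 ± 27.4), rank 235 among protein-coding genes. Nrp1 (chr8:128358604-128503363), the semaphorin and VEGF co-receptor that marks many thymus-derived regulatory T cells, was at 158 and 179 TPM (169 ± 14.6). Pecam1 (chr11:106654217-106750628), a homophilic adhesion receptor, was at 77.3 and 79.0 TPM (78.1 ± 1.20). The library ranges of the 6 partners did not overlap by gene TPM. Over coding transcripts those of Icam2 (68.9 and 73.7 TPM) and Pecam1 (67.5 and 70.8 TPM) did. With reads divided by the length of the transcript with the longest coding sequence, the ranges of Cd44 and Icam1 overlapped instead.

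The remaining partners were the ICAMs and Cd44. Icam2 (chr11:106377656-106388075), a ligand of LFA-1, was at 71.3 and 77.1 TPM (74.2 ± 4.13). Icam1 (chr9:21015985-21028817), the inducible LFA-1 ligand, was at 41.8 and 47.6 TPM (44.7 ± 4.08). Icam2 stood at 1.70 and 1.62 times Icam1, and the ratio stayed above 1 under each length setting tried. Cd44 (chr2:102811141-102901665), the hyaluronan receptor of activated and memory T cells, was at 59.5 and 66.1 TPM (62.8 ± 4.62).

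Cd44 was split between a transcript with variant exons and one without. Cd44-207, with 14 exons, took 61.3% and 58.2% of the gene's TPM from 2262 and 2247 reads. Cd44-203, with 9 exons and no variant exon, took 33.7% and 35.5% from 697 and 768 reads. The sequences on each side of the junction after exon 5 show where they part, with the exon that follows in capitals (chromosome 2, minus strand).
Cd44-203: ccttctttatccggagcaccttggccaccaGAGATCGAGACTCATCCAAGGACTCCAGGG
Cd44-207: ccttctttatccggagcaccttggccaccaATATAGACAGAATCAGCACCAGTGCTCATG
Cd44-207 holds 5 internal exons of 636 bases in all that Cd44-203 lacks, and its last exon has 3197 bases against 1791. Which of these bases the reads of Cd44-207 fell on cannot be told from the tables, so the split does not measure inclusion of the variant exons.

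All 6 activators were expressed. Fermt3 (chr19:6998958-7019469) encodes kindlin-3, the kindlin of blood cells, and was highest at 157 and 212 TPM (185 ± 39.0). Tln1 (chr4:43531519-43562691), which encodes talin-1, was at 65.7 and 62.8 TPM (64.3 ± 2.02), or 0.417 and 0.296 times Fermt3. By the whole-number counts it stood at 0.559 ± 0.125 times Fermt3. Their paralogs were near 0, with Fermt1 at 0.22 and 0.05 TPM, Fermt2 at 0.08 and 0.12 TPM and Tln2 at 0.36 and 0.07 TPM.

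The GTPases Rap1a (chr3:105727267-105801336) and Rap1b (chr10:117813871-117846035) were at 127 and 119 TPM and at 81.0 and 76.5 TPM. Rap1a was the higher by TPM in both libraries, but Rap1a-204, a transcript annotated for nonsense-mediated decay, took 55.55% ± 2.28 of it. Over coding transcripts Rap1b stood at 1.43 ± 0.0794 times Rap1a, and at 1.11 ± 0.0133 times by the longest coding sequence, against 0.639 ± 0.00257 by TPM. The whole-number counts kept the order by TPM, with Rap1b at 0.676 ± 0.0342 times Rap1a. Apbb1ip (chr2:22774094-22875653), which encodes RIAM, the adaptor between Rap1 and talin, was at 58.8 and 57.5 TPM, with 31.3% and 25.9% of its reads on its only coding transcript. Rapgef1 (chr2:29619720-29740978), an exchange factor that loads Rap1, was the lowest activator by gene TPM at 18.1 and 21.4 (19.8 ± 2.31). Over coding transcripts Apbb1ip, at 13.6 and 10.5 TPM, stood below Rapgef1, at 17.3 and 21.2 TPM.

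Coding transcripts could be compared for the 21 genes with a mean of 5 TPM or more. The same transcript led by TPM in both libraries for all 21, and it was annotated as coding for 18. The other 3 were Itga6, Rap1a and Apbb1ip, which were also the 3 genes with under 50% of reads on coding transcripts. In 14 of the 21 genes, 90% or more of the reads fell on coding transcripts, and in Itgb1 a single transcript, Itgb1-201, took 99.2% ± 0.403 of the TPM.

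**Figure D3:**
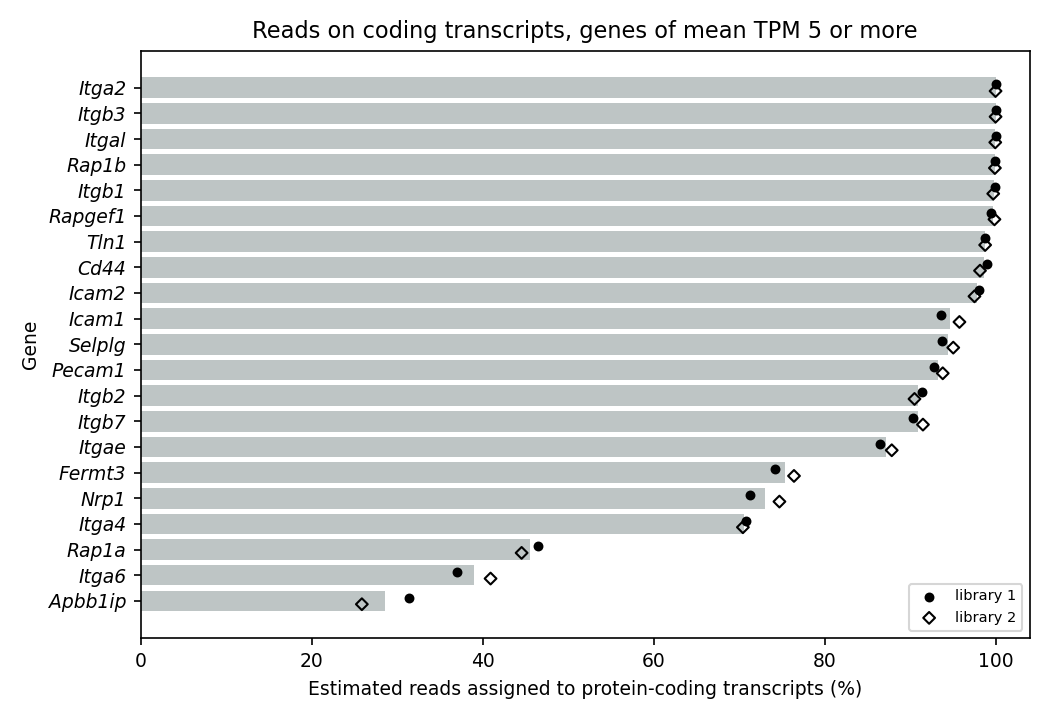
Percent of estimated reads assigned to protein-coding transcripts for the 21 genes with a mean of 5 TPM or more, with bars for the mean and symbols for each library. Apbb1ip (28.6%), Itga6 (38.9%) and Rap1a (45.5%) lie below 50%.

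Genes that act next to the 36 were described from lists of 102 further adhesion genes, of which 71 reached 1 TPM in both libraries. Of 45 cytoplasmic adaptors and activators, 33 did so. The highest were Skap1 (519 and 566 TPM) and Fyb (491 and 497 TPM), adaptors that carry RIAM to the membrane, and Rassf5 (210.1 and 261 TPM), which encodes the Rap1 effector RAPL. Stk4, the MST1 kinase that RAPL binds, was at 142 and 134 TPM. The Rap1 exchange factor Rasgrp2 was at 97.1 and 91.7 TPM, and its relative Rasgrp1 at 50.1 and 53.2 TPM. The Rap1 inactivators Rasa3 and Sipa1 were at 67.6 and 89.7 TPM and at 16.9 and 16.7 TPM.

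Among 27 other adhesion receptors and integrin-associated membrane proteins, 20 reached 1 TPM, led by Cd2 (1160 and 1238 TPM), Cd53 (900.2 and 867 TPM) and Cd48 (524 and 500.4 TPM). Cd24a had 0 reads in both libraries. Of 15 genes for the decoration of selectin ligands such as PSGL-1, 13 reached 1 TPM. The highest by their means were B4galt1 (56.9 and 59.4 TPM), Tpst2 (56.7 and 57.4 TPM) and C1galt1c1 (21.2 and 17.0 TPM). The last encodes the chaperone of such an enzyme and not an enzyme. In library 2, St3gal4 and St3gal1 were above C1galt1c1, at 19.6 and 17.7 TPM. The fucosyltransferase Fut7 was at 10.3 and 11.4 TPM, and the core 2 enzyme Gcnt1 at 9.86 and 7.00 TPM.

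Counter-receptors outside the set were low. Only 3 of 11 reached 1 TPM in both libraries and none reached 10 TPM. These were Icam4 (2.89 and 2.62 TPM), Selp (3.28 and 1.49 TPM) and Vcam1 (2.07 and 1.81 TPM). Madcam1, the ligand of alpha 4 beta 7, was at 0.45 and 0.49 TPM from 5 and 8 reads.

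The 2 libraries were compared to see which of these levels varied beyond counting error. An exact two-sided binomial test of rounded reads per gene, adjusted by Benjamini-Hochberg over 17271 genes, called 13 of 28 tested genes of the set (46.4%). The background was 24.3% of all genes tested. It called 12 genes higher in library 2 (background 12.7%) and Rap1b alone higher in library 1 (background 11.6%). Among genes with 1000 summed reads or more, 12 of 20 in the set were called (60%), against 39.5% of all such genes. With DESeq2 size factors, 14 genes of the set were called (background 24.5%), of which 11 were higher in library 2 (background 11.8%) and 3 in library 1 (background 12.7%). That scaling turned the balance over all genes from 2189 higher in library 2 and 2009 higher in library 1 to 2039 and 2194. The test compares 2 technical libraries of 1 sample and not 2 conditions.

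The genes called higher in library 2 were Itgb2, Itgal, Itgb3, Fermt3, Rapgef1, Itgae, Icam1, Nrp1, Tln1, Itgb7, Selplg and Itga3. For Itgb2 the reads were 9815 and 11918, a log2 ratio of library 2 over library 1 of 0.32 (adjusted p = 6.3e-58, exact binomial test). For Itgal they were 6528 and 7884, with a log2 ratio of 0.31 (adjusted p = 1.84e-36, exact binomial test). Fermt3 had 5026 and 5980 reads, with a log2 ratio of 0.29 (adjusted p = 3.51e-24, exact binomial test). Itgb1 had 9789 and 9555 reads and a log2 ratio of 0.01 (adjusted p = 0.875, exact binomial test). In the whole-number table the log2 ratios were smaller, at 0.13 for Itgb2, 0.27 for Itgal and 0.19 for Fermt3. All 3 passed the test there, as did Itgae (0.18) and Rapgef1 (0.34). Itgb3, Icam1, Nrp1, Tln1, Itgb7, Selplg and Itga3 did not pass on those counts, and Itgb3 had 174 in each library. Some myeloid markers were also higher in library 2, where Lyz2 had 42 reads against 9.66 in library 1 (adjusted p = 8.59e-05, exact binomial test) and Csf1r 11.85 against 2.25 (adjusted p = 0.0465, exact binomial test). The dendritic cell marker Zbtb46 was called in the other direction, with 204 and 147 reads (adjusted p = 0.0309, exact binomial test). Cd68 had 33 and 29 reads, Cd14 had 0 in both, and Itgam had 33.9 and 22. The part of myeloid RNA in the differences was not tested.

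The smaller differences were of mixed weight. Rap1b had 2675 and 2384 reads, a log2 ratio of -0.12 (adjusted p = 0.0141, exact binomial test). Tln1 had 4554 and 4855 reads and was called higher in library 2, while its TPM was lower there, since its effective length was estimated at 5590 bases in library 1 and 6602 in library 2. Icam1 (adjusted p = 0.0348, exact binomial test) and Itga3 (adjusted p = 0.0461, exact binomial test) were near the threshold of 0.05. Icam1 did not pass with DESeq2 size factors (adjusted p = 0.0567), and neither passed when genes with fewer than 10 reads were also tested (adjusted p = 0.0588 and 0.0769). The ratio of Itga3 was of opposite sign in the second, whole-number count table, at -0.10. With a preset dispersion of 0.01 in edgeR's exact test, 0 of the 28 genes passed, against 2.84% of all genes tested, and 2 had an unadjusted p below 0.05, as did 2011 of all genes.

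GC content moved with these differences. The 12 genes higher in library 2 had a median GC content of 56.2% (50.01% to 58.6%) in the transcript with the longest coding sequence. Rap1b had 39.9%, and the 15 genes not called had a median of 48.8% (38.8% to 58.2%). Across the 22 genes of the set with 200 summed reads or more, Spearman's rho between the log2 ratio and GC content was 0.553. Over 8791 protein-coding genes of that depth it was 0.249. Both are descriptions across genes, which share the same 2 libraries, and the part of GC content in the result was not tested.

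**Figure D4:**
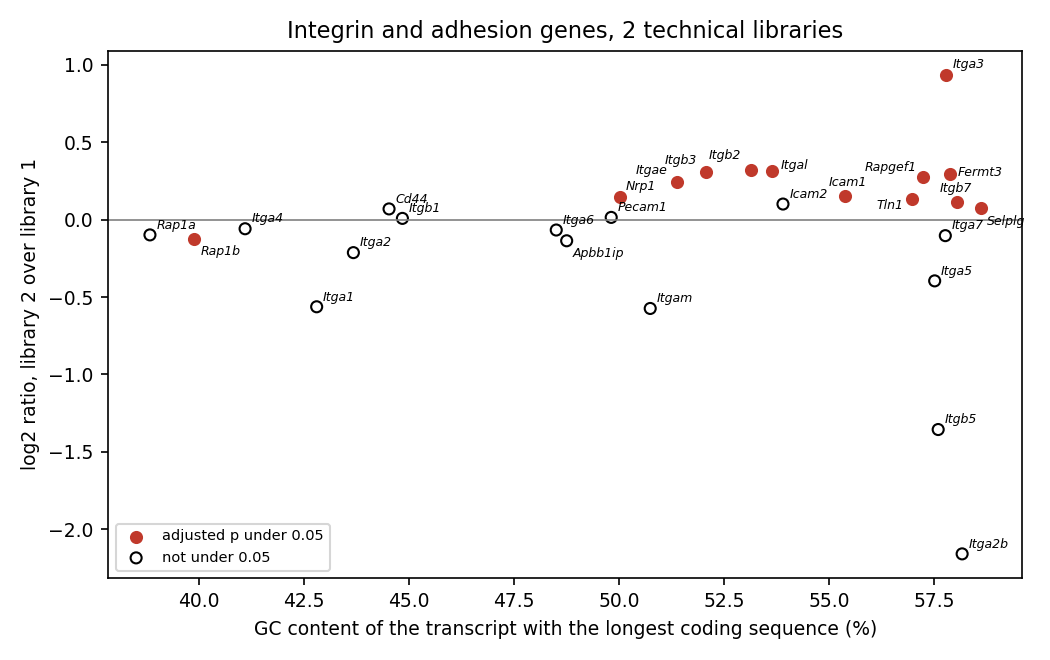
Log2 ratio of library 2 over library 1 against GC content (%) for the 28 tested genes, with filled points for adjusted p under 0.05 in the exact binomial test. The called genes above 0 lie at 50.01% GC or more, and Rap1b, below 0, lies at 39.9%. The genes not called span 38.8% to 58.2%.

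The whole-number table, made with GENCODE M4, listed all 36 genes. It counted 3134 and 2972 reads for Itgb1, 3497 and 3824 for Itgb2 and 3350 and 3444 for Itgb7. Relative to the estimated reads, the genes kept unequal shares. Tln1 kept 67.4% and 66.1% and Itgae 65.2% and 64.5%, while Rap1a kept 11.7% and 11.1% and Rap1b 12.8% and 11.3%. Across 22 genes of the set the share rose with the coding part of the transcript with the longest coding sequence (Spearman's rho = 0.651), as it did over 8668 protein-coding genes (rho = 0.572), both descriptions across genes. Of 27 genes of the set tested on these counts, 7 differed between the libraries (25.9%), against 9.95% of all genes tested on them. Of the 7, 5 were higher in library 2 (background 5.39%) and 2 in library 1 (background 4.55%).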

How the data were processed

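Polyadenylated RNA from 1 group, activated regulatory T cells of biological replicate 1, was sequenced in 2 technical libraries. Per the file headers, the authors deposited for each library a gene and a transcript table on mm10 with GENCODE M21, which give the expected count (estimated reads), TPM and FPKM. The deposited transcript tables also give isoform percent, the share of a gene's TPM that falls on each transcript. The authors also deposited whole-number gene counts on GENCODE M4. Quantification tool, counter and strandedness were not given in the sources used here. Lengths and effective lengths differ as for reads of 50 bases.

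All 55536 gene identifiers matched GENCODE M21, and 22195 of 22457 identifiers with whole-number counts matched. Rows without a gene name held 0.142% and 0.186% of estimated reads and entered neither the library sizes nor the tests. Expected counts were rounded, and genes with a summed count of 10 or more were put to an exact, two-sided binomial test against library 2's 49.3% share, adjusted by Benjamini-Hochberg at 0.05 over all genes tested. Log2 ratios add 0.5 to each count. Depth sets the precision, and counting limits (3 reads for a gene at 0) cover counting error only. Adjusted p-values measure counting error between technical libraries. The test was tested on simulated data that held only counting error and set fold changes, so the simulation does not cover other variation between libraries. Alternatives were other scalings (TMM from edgeR 4.0.16, DESeq2 1.42.0, R 4.3.3), count and level filters, edgeR's exact test at a dispersion of 0.01, FPKM, the whole-number table, other transcript lengths and each library alone. The remaining steps ran in Python 3.11.15 with scipy 1.17.1, pandas 2.3.3, numpy 2.4.6 and biopython 1.88. Sequences are from GENCODE M21 transcripts, with coding ranges from its annotation.

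The members and the lists were chosen with earlier results of these data known. Every member at 1 TPM or more in both libraries is named, and so are the 3 highest of each other adhesion list, members at 0 reads and direct partners, except for a few items that are not reported here. Fermt1, Fermt2 and Tln2, the paralogs of activators, were named after their values were seen.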

Additional observations from a re-analysis of the deposited data

How the results depend on the processing

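No paired analysis was possible because there was 1 group and no second condition. The count of genes at 1 TPM in both libraries (23) was 23 at 0.5 TPM, 21 at 5 TPM, 22 by FPKM and 26 by the whole-number table, and 23 to 24 with 1 library alone. The median log2(TPM + 1) of the set, 4.91, was 4.61 by FPKM and 5.35 by the whole-number table, and 4.84 to 4.97 with 1 library alone. Of the set, 13 genes differed between the libraries. The count was 7 by the whole-number table, which included Itga4, a gene not among the 13. It was 0 by edgeR's exact test at a dispersion of 0.01. Over all genes the count went from 4198 to 1092 and 491 in the same settings. The ratio of Rap1b to Rap1a went from 0.639 to 1.11 with the longest coding sequence and 1.43 over coding transcripts. That of Itgb7 to Itgb2 went from 1.23 to 0.764 and 0.874 in the same settings. That of Itgav to Itgb3 went from 4.61 to 0.927 with the longest coding sequence. These settings give other weights to noncoding or short transcripts. By the whole-number table those ratios were 0.676, 1.65 and 3.05, on the same side of 1 as by TPM. The log2 ratio of Itga3 went from 0.94 to -0.10 (adjusted p = 1, exact binomial test) in the whole-number table, and the cause was not tested. Itga4 passed with DESeq2 size factors (adjusted p = 0.0237) and in the whole-number table (adjusted p = 0.0315), and Apbb1ip with DESeq2 size factors (adjusted p = 0.0323) and with a summed count of 50 or more (adjusted p = 0.0450). Of the 10 ratios first chosen, 5 were above 1 by TPM and 6 by the longest coding sequence, so the levels of genes with many noncoding reads depend on transcript assignment. Genes of fewer than 100 reads, such as Itga3 and Itga5, are limited by depth.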
